A study of Mus musculus with 209 samples.

Results

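The genes described here encode the proteins of the spliceosome and the factors that guide it to splice sites. They were taken by name: symbols beginning with Sf3a or Sf3b and a digit, Snrpa to Snrpg, Snrnp, Prpf and a digit, Srsf and a digit, Lsm and a digit, or U2af, with Snrpn left out. The rule used no measured value and found 67 of the 24450 genes in the gene tables. Their RNA was measured in single mouse oocytes and single 2-cell stage samples, each library being 1 sample with no animal named, and in bulk epiblast. The single-cell groups were 14 wild-type (WT) oocytes and 19 oocytes of the "N14 maternal KO" at metaphase II (MII), collected 14 to 15 h after hCG, and 8 WT and 9 KO 2-cell samples collected 42 to 43 h after hCG. The females were superovulated C57BL/6 mice aged 6 to 8 weeks. They were mated with C57BL/6 or PWK males, and the sire of each 2-cell sample is not given in the sources used here. The deletion is in the mother in the KO groups, no group was treated with a drug, and all oocyte and 2-cell groups share the superovulation. The label does not spell out "N14". The epiblast groups, both WT C57BL/6 x C57BL/6, were 2 samples from embryos at embryonic day 6.5 (E6.5) and 2 samples of in vitro cultured (IVC) embryos. The E6.5 labels also carry "ND", which is not spelled out, and the IVC labels do not.

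The spliceosome removes introns from pre-mRNA and is rebuilt on each intron. The U1 small nuclear ribonucleoprotein (snRNP) binds the 5′ splice site, U2AF and the U2 snRNP bind the 3′ splice site and branch point, and the U4/U6.U5 tri-snRNP then joins and is activated by the Prp19 complex. U1, U2, U4 and U5 each carry a ring of Sm proteins, U6 carries the Lsm2-8 ring, and SR proteins bind exons and recruit these particles. A full-grown oocyte is transcriptionally silent and lives on stored maternal RNA, and the mouse embryo begins large-scale transcription of its own genome at the 2-cell stage. By role the 67 genes comprised 7 of the Sm core, 3 of U1, 11 of U2, 3 of U2AF, 8 of the tri-snRNP, 7 of the Lsm2-8 ring, 8 Prp19 and other Prpf factors, 3 of the minor (U11/U12) spliceosome, 11 SR proteins and 6 LSm proteins that work outside the spliceosome.

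Levels are given as CPM, a gene's counts scaled to the same total of gene counts in every library. Total counts were 3933604 to 13052327 in WT oocytes, 4585916 to 10637866 in KO oocytes, 3788348 to 10303580 in WT 2-cell samples and 2704050 to 15007301 in KO 2-cell samples. All 10 oocyte markers reached 10 CPM in the oocytes, and the summed level of 6 genes of the 2-cell stage was 0.32 to 12.1 CPM in oocytes against 203 to 2281 CPM in 2-cell samples. Cumulus and granulosa cell markers summed to 44.3 to 106 CPM in WT and 46.1 to 169 CPM in KO oocytes, and their part in the results was not tested. Nlrp14, a gene of maternal oocyte RNA, stood at 225 to 3307 CPM (median 407) in WT and 0.643 to 73.2 CPM (median 37.1) in KO oocytes. The 3307 CPM was WT oocyte replicate 14 alone, and the other WT oocytes stood at 225 to 652 CPM. The log2 ratio of KO to WT pooled levels was -4.31 in oocytes, with replicate 14 in the WT pool, and -2.03 at the 2-cell stage. Oocyte libraries came in sets. In 10 WT and 7 KO oocytes over 0.01% of counts were RNA spike-ins (the spike-in set), in 3 WT and 10 KO oocytes the ribosomal RNA gene Rn45s took under 1% of counts (the low-rRNA set), and 3 oocytes were in neither. All 2-cell samples were of the spike-in kind. Spike-ins took 0.038% to 0.059% of counts in WT and 0.028% to 0.039% in KO oocytes of the spike-in set. They took 0.058% to 0.135% in WT and 0.048% to 0.096% in KO 2-cell samples. CPM compare shares of gene counts, so RNA per cell was not compared. WT 2-cell replicate 8 stood apart. Paternal reads made up 4.0% of its allele-assigned counts against 9.03% to 24.7% in the other 7 WT samples, and its summed level of the 67 genes, 5238 CPM, was the lowest of the WT 2-cell samples. Values without it are therefore given.

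Upstream sequence is shown for 4 genes on which the comparisons below turn, chosen after their values were seen: Snrpd2 and Snrpc, which were among the highest against oocytes at the WT 2-cell stage, and Snrpd3 and Snrnp70, which were among the lowest. Each is the 250 bases before the annotated start, 5′ to 3′ on the gene's strand, from RefSeq, build GRCm38.p6. The windows are chr7:19149588-19149837 (plus strand) for Snrpd2, chr17:27839837-27840086 (plus) for Snrpc, chr10:75517792-75518041 (plus) for Snrpd3 and chr7:45395743-45395992 (minus) for Snrnp70. Capitals mark matches, on either strand, to the letters GGGCGG (the GC box), CCGGAAG (the ETS factor motif) or TAATCC (the motif of OBOX homeodomain factors).
Snrpd2: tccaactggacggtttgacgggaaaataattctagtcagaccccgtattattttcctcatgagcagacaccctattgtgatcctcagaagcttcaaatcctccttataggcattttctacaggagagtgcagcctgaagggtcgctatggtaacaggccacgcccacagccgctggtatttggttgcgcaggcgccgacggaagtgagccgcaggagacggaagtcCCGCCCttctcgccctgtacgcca
Snrpc: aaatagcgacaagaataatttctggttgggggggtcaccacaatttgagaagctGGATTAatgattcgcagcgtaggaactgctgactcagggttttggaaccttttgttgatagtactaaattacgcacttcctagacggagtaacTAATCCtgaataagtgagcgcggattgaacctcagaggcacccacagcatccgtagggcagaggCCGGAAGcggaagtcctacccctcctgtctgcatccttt
Snrpd3: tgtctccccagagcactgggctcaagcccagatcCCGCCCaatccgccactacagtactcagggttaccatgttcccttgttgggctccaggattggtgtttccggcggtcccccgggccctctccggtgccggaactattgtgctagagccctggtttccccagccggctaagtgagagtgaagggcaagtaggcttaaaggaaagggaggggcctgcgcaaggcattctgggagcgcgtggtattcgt
Snrnp70: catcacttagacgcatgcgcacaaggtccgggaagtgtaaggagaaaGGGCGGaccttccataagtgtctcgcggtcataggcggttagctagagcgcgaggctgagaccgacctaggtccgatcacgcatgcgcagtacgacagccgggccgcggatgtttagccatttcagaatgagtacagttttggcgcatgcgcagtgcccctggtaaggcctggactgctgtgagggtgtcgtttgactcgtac
Snrpd2, Snrpd3 and Snrnp70 have a GC box, and Snrpc has TAATCC at 2 places and CCGGAAG at 1. Of the 67 genes, 56 had at least 1 window, with 67 windows in total. A gene was counted where any of its windows held the motif. GGGCGG occurred in 38 of the 56 (67.9%), in 35.4% of all 27025 genes with a window and in 63.5% of the 6669 such genes compared at the 2-cell stage. CCGGAAG occurred in 19 (33.9%), against 7.83% of all these genes and 16.9% of the compared genes. TAATCC was in 5 (8.93%), against 7.21% and 6.33%, and the nuclear-receptor motif AAGGTCA was in 5 (8.93%), against 4.70% and 3.37%. TATAAA was in 5 (8.93%), against 14.3% and 8.20%. Among members at least 2-fold higher at the WT 2-cell stage than in oocytes, 20 had a window, and 6 of these held CCGGAAG, 12 GGGCGG and 3 TAATCC. Among those at least 2-fold lower, 9 had a window, and 3 held CCGGAAG, 7 GGGCGG and 1 TAATCC. A match describes letters in these windows and is not a binding site.

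Which splicing genes differ between the egg and the 2-cell stage was asked first in WT samples. Because each library is 1 cell with no animal named, each group was treated as 1 sample: counts were pooled over its libraries, no test was made, and the 95% intervals in brackets are exact Poisson intervals that cover counting error only. A gene was compared where either pool reached 10 CPM and is called higher or lower at a 2-fold difference. Of 8532 genes compared, 41.1% were higher and 14.3% lower at the 2-cell stage, with a median log2 ratio of 0.64. Of the 67 splicing genes 58 were compared. At the 2-cell stage 24 of them (41.4%) were higher and 11 (19%) lower, with a median of 0.71, so the share that was higher was near that of all genes. The count depended on scaling. With edgeR's TMM factors, which move the median of all genes to -0.04, it was 18 higher and 15 lower of 57, against 27.8% and 26.5% of all genes. With DESeq2's size factors, which move it to -0.55, it was 15 higher and 22 lower of 56, against 21.5% and 38.3%.

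**Figure D1:**
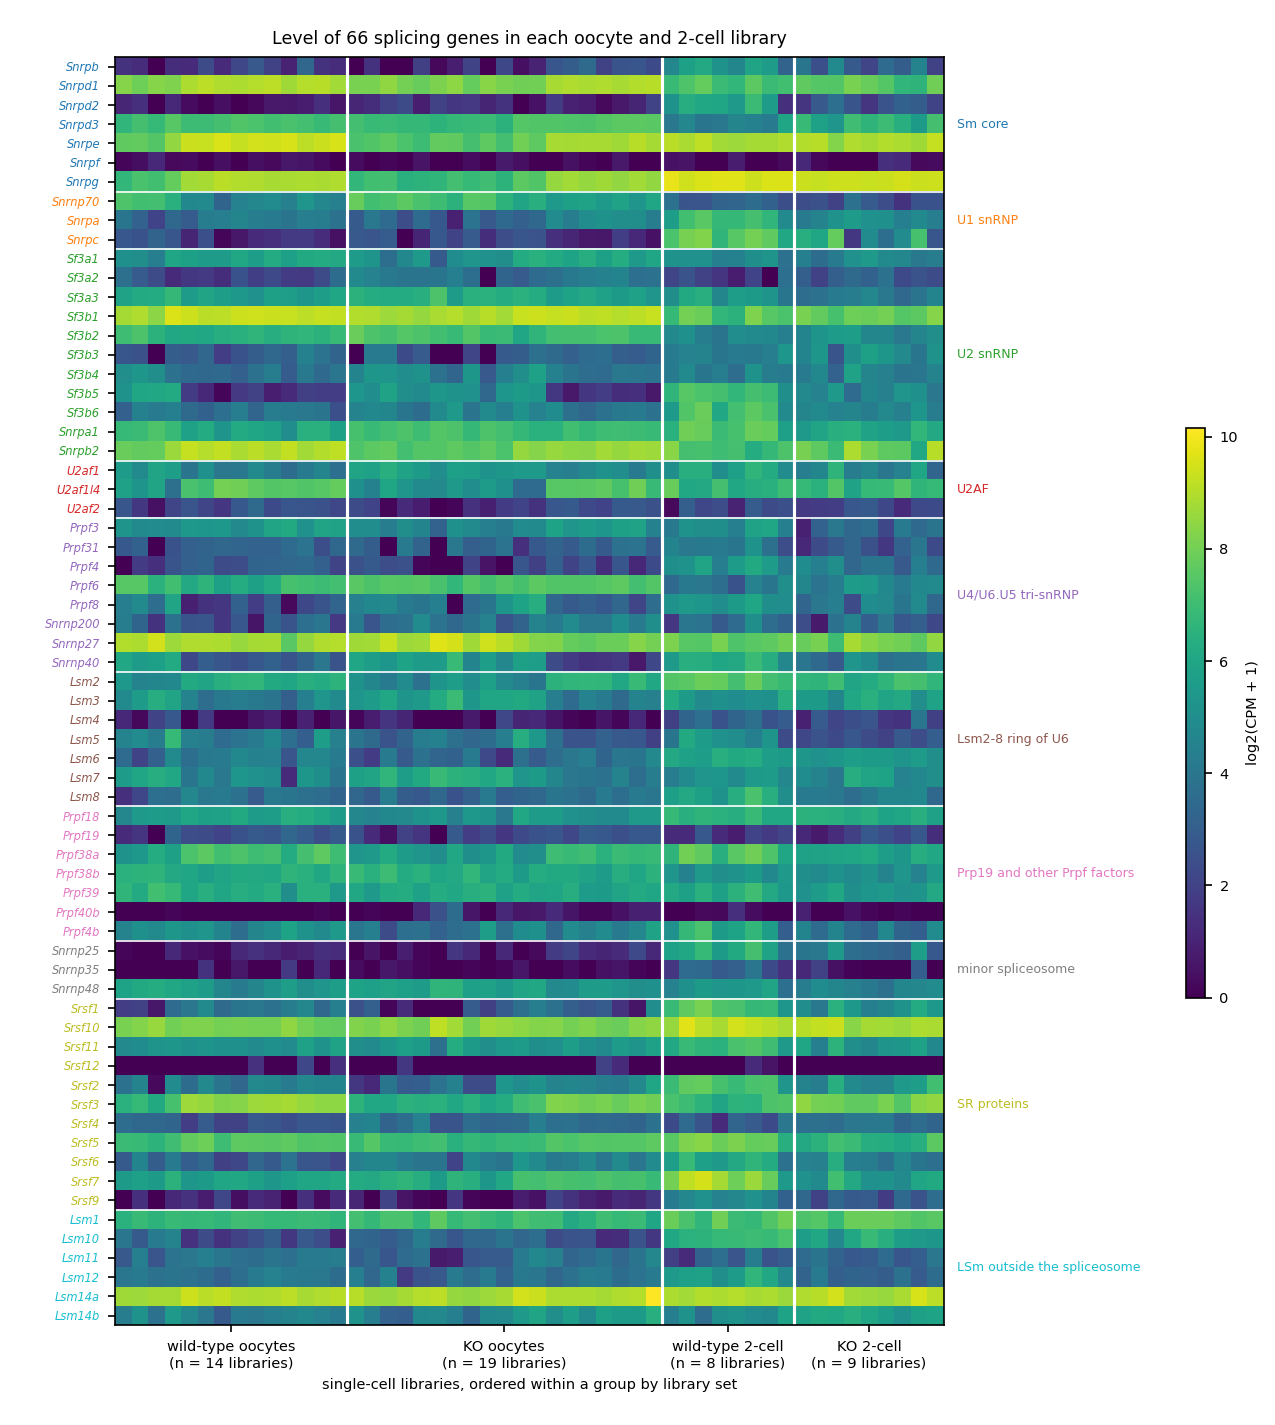
Heat map of log2(CPM + 1) for 66 of the splicing genes (rows, grouped by role) in the 50 single-cell libraries (columns, grouped by stage and genotype, and within a group by library set). Lighter is higher: Snrpc and Snrpd2 are dark in oocytes and lighter at the WT 2-cell stage, and Snrpf is dark throughout.

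The Sm core split. Genes of the short Sm and LSm proteins have near-identical processed copies elsewhere in the genome, and how the authors' counting treated shared reads is not given in the sources used here, so their levels are uncertain in every group described below. Snrpd2, which encodes SmD2, was at 0 to 1.61 CPM (median 0.55) in WT oocytes and at 1.65 to 122 CPM (median 54.9) in WT 2-cell samples, where its lowest sample was replicate 8. Every 2-cell sample was above every oocyte, and the log2 ratio of the pools was 6.08 [5.76, 6.43]. Snrpb, which encodes SmB and SmB′, had a ratio of 3.86. Snrpd3 and Snrpd1, which encode SmD3 and SmD1, were lower. Snrpd3 was at 101 to 183 CPM (median 141) in oocytes and 14.5 to 64.2 CPM (median 19.3) at the 2-cell stage, without overlap, and its ratio was -2.22 [-2.30, -2.13], or -2.88 without replicate 8. Snrpd1 had a ratio of -1.52, also without overlap. Snrpf, which encodes SmF, was too low to compare, at no more than 1.57 CPM in any of the 50 libraries.

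Among the U1 proteins, 2 of 3 were higher and 1 lower. Snrpc (U1-C, which stabilises pairing with the 5′ splice site) was at 0.115 to 8.49 CPM (median 1.96) in oocytes and 67.4 to 300.0 CPM (median 192) at the 2-cell stage, without overlap, with a ratio of 5.71 [5.56, 5.87], or 6.96 against oocytes of the spike-in set alone. Snrpa (U1-A) had a ratio of 2.81. Snrnp70 (U1-70K) went the other way, with a ratio of -3.16 [-3.33, -3.00]. Its oocyte levels spread widely, from 8.62 to 162 CPM (median 26.7), and overlapped those of the 2-cell stage, 4.37 to 13.1 CPM (median 8.23). Against oocytes of the spike-in set alone the ratio was -1.65. The U2 snRNP had 3 higher and 3 lower of 10. The small subunits Sf3b6 and Sf3b5, which belong to the SF3b complex at the branch point, were higher at 2.96 and 2.15. Sf3b5 depended on the oocyte libraries. Its WT oocyte level was 1.96 CPM in the spike-in and 55.5 CPM in the low-rRNA set, and against the spike-in set alone its ratio was 5.83. The large subunits Sf3b1 and Sf3b2 were lower at -1.74 and -2.11, and Sf3b2 stood at 66.6 to 159 CPM (median 90.9) in oocytes and 14.2 to 33.1 CPM (median 26.0) at the 2-cell stage, without overlap. Neither U2AF gene compared passed 2-fold.

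Of 8 tri-snRNP genes 4 were higher and 2 lower. Among the higher ones, Prpf8 had a ratio of 1.42 and Snrnp40 of 1.17, or 3.13 and 3.12 against oocytes of the spike-in set alone. Prpf4, a U4/U6 protein, had a ratio of 2.85. Prpf6, which bridges U5 and U4/U6, was at 53.4 to 185 CPM (median 110.0) in oocytes and 4.92 to 31.7 CPM (median 14.9) at the 2-cell stage, without overlap, and its ratio was -2.75 [-2.85, -2.64]. The Lsm2-8 ring had 3 higher and none lower of 6, with Lsm8 at 2.48. The Prp19 and other Prpf factors had none higher and 2 lower of 6. In the minor spliceosome, Snrnp25 (the U11/U12 25K protein) was at 0 to 1.77 CPM (median 0.895) in oocytes and 12.7 to 144 CPM (median 61.0) at the 2-cell stage, with a ratio of 6.38 [6.06, 6.73]. SR proteins had 6 higher and 1 lower of 9. Srsf9 was at 0 to 3.45 CPM (median 1.09) in oocytes and 7.96 to 34.7 CPM (median 23.8) at the 2-cell stage, a ratio of 4.36 [4.08, 4.65]. Srsf1, Srsf2, Srsf6 and Srsf7 had ratios of 3.57, 2.83, 2.58 and 2.50, and Srsf3, which promotes exon inclusion and mRNA export, was the lower one at -1.07. The median of the SR proteins was 2.50, and 1.93 and 1.51 under TMM and DESeq2 scaling. Of the LSm proteins outside the spliceosome 2 of 6 were higher, with Lsm10, a part of the U7 snRNP that processes histone mRNA, at 3.83, or 5.01 against the spike-in set alone.

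**Figure D2:**
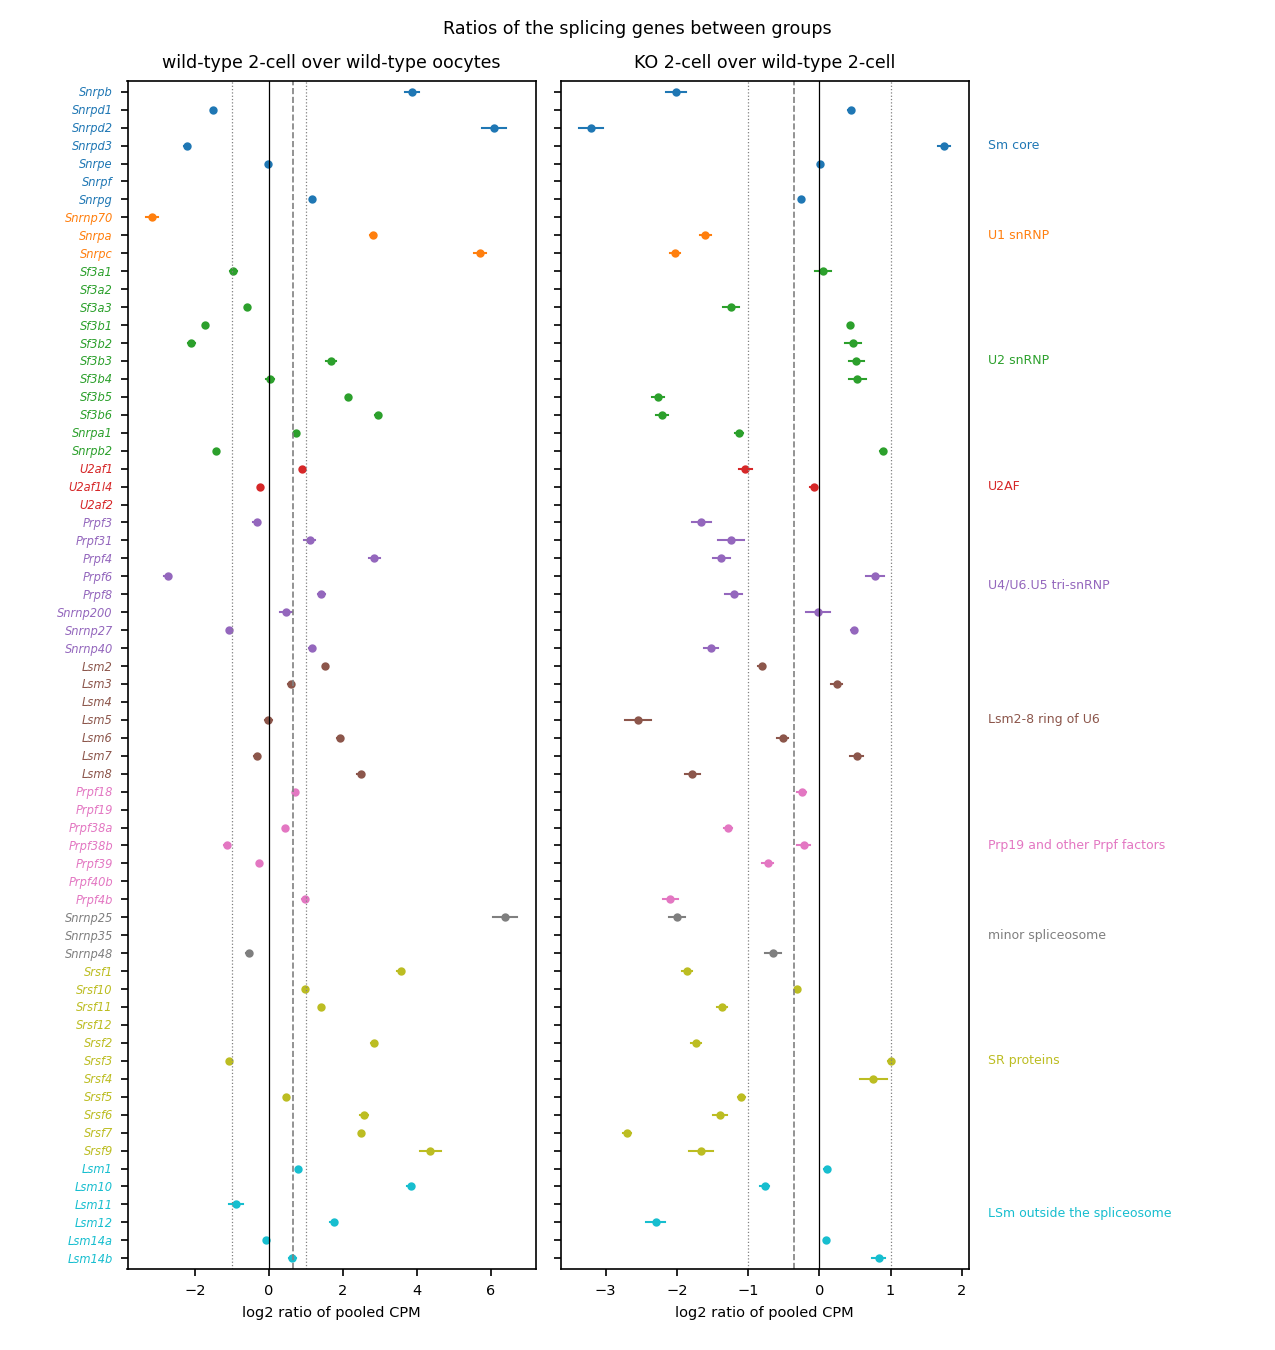
Log2 ratio of pooled CPM for the compared genes shown, WT 2-cell over WT oocytes and KO over WT 2-cell, as points with 95% Poisson intervals; the dashed line is the median of all compared genes (0.64 and -0.35) and dotted lines mark 2-fold. Snrnp25, Snrpd2 and Snrpc are far to the right in the first comparison and near -2.0 or below it in the second, and Snrpd3 changes sides.

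Separation of single libraries was less common than a 2-fold difference of pools. All WT 2-cell samples were above all WT oocytes for 15 of the 58 genes, against 18% of all genes compared. All were below for 7, among them Prpf6, Sf3b1, Sf3b2 and Snrpd3, against 5.2%. Without replicate 8 these counts were 20, against 26.6%, and 7, against 6.95%. The 2-fold counts were then 27 higher and 11 lower. They are not set against the share of all genes, so they are not read as a result about the splicing genes. With oocytes of the spike-in set alone the 2-fold counts were 26 higher and 11 lower, against 42.1% and 12.8% of all genes.

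Levels in KO embryos were compared with WT at the 2-cell stage. Of 8416 genes compared, 5.96% passed the 2-fold limit upward and 31.6% downward in KO relative to WT 2-cell samples, and the median log2 ratio was -0.35. Of the 67 splicing genes 57 were compared, and 2 (3.51%) were higher and 27 (47.4%) lower in KO, with a median of -0.77. The 2-cell marker sum was 712 to 1710 CPM in WT and 203 to 2281 CPM in KO. Spike-ins took a median of 0.114% of counts in WT and 0.061% in KO 2-cell samples. The part of the marker sum and of the spike-in share in these ratios was not tested. With TMM factors, where the median of all genes is -0.01, the counts were 6 higher and 21 lower of 56, against 12% and 24.4% of all genes. With DESeq2's size factors, where it is 0.30, they were 11 higher and 16 lower of 55, against 21.0% and 19.3%. Without WT replicate 8 they were 5 higher and 27 lower, against 11.3% and 36.9%. This comparison and the previous one share the WT 2-cell samples.

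Snrpd2 was at 1.87 to 12.2 CPM (median 5.20) in KO against 1.65 to 122 CPM (median 54.9) in WT 2-cell samples. The ranges overlapped through WT replicate 8, and the ratio was -3.20 [-3.37, -3.04], or -3.59 without that sample. Snrpb, the other Sm gene that was lower, had a ratio of -2.02. Snrpd3 was the Sm gene that was higher. It was at 38.8 to 142 CPM (median 97.9) in KO and 14.5 to 64.2 CPM (median 19.3) in WT, where replicate 8 was the highest sample, and its ratio was 1.75 [1.67, 1.84], or 2.42 without replicate 8. Its pooled level was 99.8 CPM in KO and 29.6 CPM in WT 2-cell samples and 138 CPM in WT oocytes. Both U1 genes compared were lower, Snrpc at -2.03 and Snrpa at -1.60, and both were also called lower with TMM and DESeq2 factors.

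Of the 10 U2 genes compared 4 were lower and none higher, with Sf3b5 and Sf3b6 at -2.26 and -2.21. Sf3b5 was at 10.6 to 42.9 CPM (median 24.2) in KO and 32.0 to 184 CPM (median 133) in WT. The median of the 10 U2 genes was 0.24, and with DESeq2's size factors 4 were higher and 2 lower. Snrpb2, the U2-B″ protein, was at 67.4 to 543 CPM (median 199) in KO and 78.4 to 324 CPM (median 143) in WT, with a ratio of 0.90 [0.86, 0.94]. The tri-snRNP had 5 lower of 8, among them Prpf3 at -1.66 and Snrnp40 at -1.52, and this count was 3 of 7 with TMM and 1 of 6 with DESeq2 factors. In the Lsm2-8 ring Lsm5 and Lsm8 were lower. Lsm5 was at 3.02 to 7.25 CPM (median 4.31) in KO and 4.08 to 70.5 CPM (median 32.9) in WT, a ratio of -2.55 [-2.73, -2.36]. Prpf4b, a kinase that phosphorylates tri-snRNP proteins, was lower at -2.09, and Snrnp25 at -2.0.

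SR proteins had 7 lower and 1 higher of 10, and 4 lower and 2 higher with DESeq2's size factors. Srsf7 was at 27.7 to 135 CPM (median 34.9) in KO and 44.8 to 720 CPM (median 328) in WT, a ratio of -2.70 [-2.75, -2.64]. Srsf1, Srsf2 and Srsf9 had ratios of -1.86, -1.73 and -1.66. Srsf3 was higher in every KO sample than in every WT sample, at 175 to 370 CPM (median 265) against 60.8 to 171 CPM (median 109), with a ratio of 1.01 [0.96, 1.05]. Outside the spliceosome Lsm12 was at 6.66 to 17 CPM (median 8.40) in KO and 26.9 to 102 CPM (median 50.8) in WT, without overlap, a ratio of -2.30 [-2.43, -2.17]. Lsm14b, a protein of stored oocyte RNA particles, was at 34.4 to 81.2 CPM (median 58.9) in KO and 11.6 to 58.2 CPM (median 30.8) in WT, a ratio of 0.83 [0.74, 0.92]. Srsf3 was the only splicing gene with all KO above all WT samples, against 0.333% of all genes, and Lsm12, Lsm8 and Prpf8 had all KO below all WT samples, against 1.37%. Without WT replicate 8, Snrpd3 joined Srsf3 (background 3.62%) and 15 genes were below (background 13%).

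**Figure D3:**
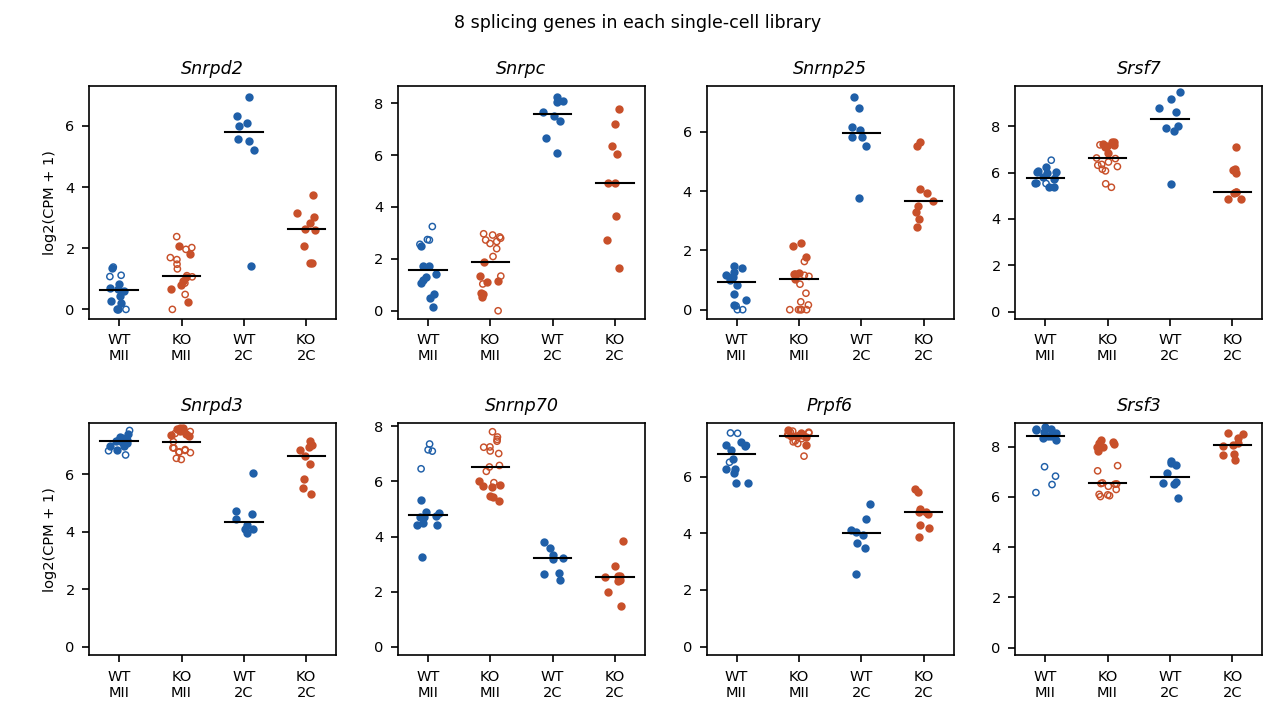
Level, as log2(CPM + 1), of 8 splicing genes in every single-cell library by group; filled points are libraries of the spike-in set, open points the other oocytes, and bars are medians. Snrpd2, Snrpc, Snrnp25 and Srsf7 have WT 2-cell medians of 54.9, 192, 61.0 and 328 CPM above those of the other groups, while Snrpd3 and Srsf3 have WT 2-cell medians of 19.3 and 109 CPM, below the KO 2-cell medians of 97.9 and 265 CPM.

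Reads assigned to a parent's allele show how much of a gene's RNA carried the father's sequence, which an unfertilised egg lacks. A share is paternal counts over all allele-assigned counts of the pooled group, with a 95% Clopper-Pearson interval, for genes with at least 50 such counts. The oocyte columns of the maternal table equal the total counts in all 33 oocytes, so they hold no allele measurement and were not used here. Over all genes the paternal share of single samples was 4.00% to 24.7% in WT and 1.21% to 8.68% in KO. Because the sire strain of each sample is not given, it cannot be told apart from genotype. Its part in these shares and in the allele levels below was not tested. In WT 2-cell samples 53 of the 67 genes passed the count minimum, and 30 of them (56.6%) had a paternal share of 25% or more, against 46% of 10869 genes; the members' median was 30.3% and that of all genes 21.6%. In KO 2-cell samples 51 passed, and 42 (82.4%) stayed under 25%, against 83.5% of 10154 genes, with medians of 6.41% and 3.34%. Of the 50 genes that passed in both, 48 had a higher share in WT, 96% against 82.5% of 9419 genes, and Snrnp25 and Srsf7 were the exceptions. Without WT replicate 8, 33 of 52 WT genes reached 25%, against 51.6% of all genes, and the median was 36.4%.

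The tri-snRNP and SR proteins reached a paternal share of 25% in WT in 6 of 8 and 5 of 6 genes, as did 7 of 10 U2 genes and both U1 genes that passed. U2af1, the U2AF subunit that reads the AG of the 3′ splice site, had 66.2% [62.2, 70.2], and its single samples ran from 43.8% to 80%. Prpf8, the core protein of U5, had 57.8% [54.4, 61.1], the helicase gene Snrnp200 53.9% [47.0, 60.6] and Prpf31 52.6% [47.6, 57.5]. The LSm genes outside the spliceosome reached 25% in none of 6, with Lsm14b at 1.27% [0.26, 3.67]. The Sm genes Snrpg and Snrpd1 had 4.68% [4.24, 5.15] and 4.82% [2.93, 7.43], and the U2AF-related U2af1l4 5.20%. In KO samples U2af1 had 42.1% [37.0, 47.5] and Prpf4 33.2%. Srsf7 had 39.6% [31.8, 47.8] in KO and 34.3% [28.3, 40.6] in WT, so its intervals overlapped. Its single samples with at least 5 allele counts ran from 0% to 100% in KO and 0% to 56.9% in WT. Snrnp25 had 29.8% [25.1, 34.8] in KO and 16.8% [14.6, 19.3] in WT. Its single samples ran from 6.90% to 50% in KO and 0% to 51.0% (median 5.11%) in WT. The lowest shares in KO were those of Lsm11 with 0 of 397 counts, an interval of up to 0.92%, and U2af1l4 at 0.103%. Next were Snrnp27 at 0.164% against 15.3% in WT, and Snrpd1 at 0.201%. Snrpc was at 35.3% in WT and 6.09% in KO, and Snrpd3 at 14.4% and 0.82%.

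**Figure D4:**
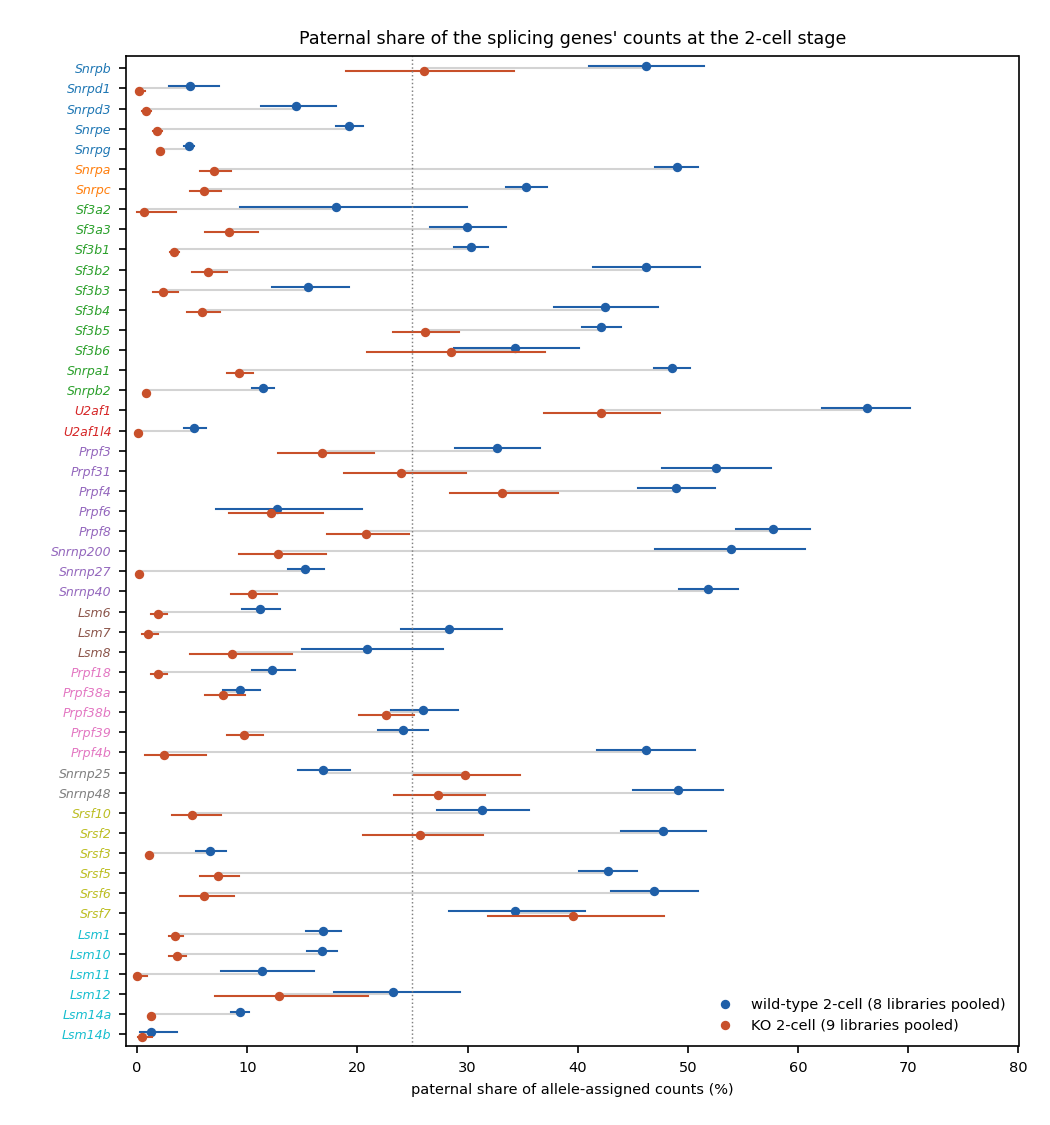
Paternal share of allele-assigned counts (percent) of 49 splicing genes that passed in both genotypes, in pooled WT and KO 2-cell samples, with 95% Clopper-Pearson bars; the dotted line marks 25%. WT points lie to the right for 47 of these genes, and Snrnp25 and Srsf7 are the exceptions.

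The level of each allele was then taken as its CPM over all gene counts, for genes with at least 50 allele counts in either pool. For the paternal allele 44 of 46 splicing genes were at least 2-fold lower in KO and none higher, against 90.2% of 6296 genes lower and 1.35% higher; medians were -2.77 and -2.74. The members' share was thus near that of all genes. The 2 exceptions were Prpf38b at -0.30 and Srsf7 at -0.99. The paternal level of Prpf4b was 5.39 CPM in WT and 0.06 CPM in KO, and that of Snrpc was 20.7 and 1.12 CPM. For the maternal allele 8 of 53 splicing genes were higher and 13 lower, against 12% and 23.9% of 10586 genes, with medians of -0.32 and -0.05. The U2 snRNP had 5 higher of 10: Sf3b2 at 1.45, Sf3b4 at 1.35, Sf3b1 at 1.13, Sf3a2 at 1.08 and Snrpb2 at 1.01. Snrpd3, Srsf3 and Prpf19 were the other 3, at 1.94, 1.42 and 1.30. For Snrpd3 the maternal level was 33.0 CPM in KO and 8.61 CPM in WT. Lower on the maternal allele were Snrpd2 at -3.03, Snrnp25 at -2.27, Sf3b5 at -2.0, Sf3b6 at -1.56 and Snrpc at -1.13. The count of 8 was 12 without WT replicate 8 and 4 without KO replicate 4.

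KO oocytes and KO 2-cell samples gave the same stage comparison within the KO, and share the KO 2-cell samples with the comparison of genotypes. Of 7179 genes compared, 23.6% were higher and 17.4% lower at the KO 2-cell stage, with a median of 0.23. Of 56 splicing genes 10 (17.9%) were higher and 12 (21.4%) lower, with a median of -0.11. Snrpc was at 0 to 6.82 CPM (median 2.71) in KO oocytes and 2.13 to 215 CPM (median 29.2) in KO 2-cell samples, which overlapped, and its ratio was 3.77 [3.62, 3.91], or 5.09 against oocytes of the spike-in set alone. Lsm10 was at 1.34 to 18.8 CPM (median 8.65) and 24.8 to 117 CPM (median 51.0), without overlap, a ratio of 3.14, or 4.27 against that set. Srsf1 and Sf3b3 had ratios of 2.66 and 2.13. Snrnp70 was at 37.9 to 221 CPM (median 90.8) in oocytes and 1.80 to 13.4 CPM (median 4.72) at the 2-cell stage, without overlap, a ratio of -4.03 [-4.18, -3.89], or -2.93 against oocytes of the spike-in set. Prpf6, Sf3b2 and Sf3a3 were lower at -2.46, -2.16 and -2.09. All KO 2-cell samples were above all KO oocytes for 4 genes (Lsm10, Lsm6, Snrnp25 and Snrpg; 5.67% of all genes) and below for 7, among them Prpf6, Sf3a3, Sf3b2 and Snrnp70 (4.94%). With oocytes of the spike-in set alone 13 genes were higher and 12 lower, against 19.5% and 16.3%. Sf3b5 and Snrnp40 had ratios of 0.02 and -0.58 against all KO oocytes and 3.77 and 3.26 against the spike-in set.

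Before fertilisation the genotypes differed in few splicing genes. Of 6325 genes compared in oocytes, 2.04% were higher and 2.39% lower in KO, with a median of 0.02. Of 51 splicing genes 3 were higher and 1 lower, with a median of 0.03. Sf3a2 had pooled levels of 15.9 CPM in KO and 4.90 CPM in WT, a ratio of 1.70 [1.56, 1.84]. Srsf6 had 20.1 and 9.27 CPM, a ratio of 1.11 [1.01, 1.22], Snrnp200 16.9 and 8.09 CPM, a ratio of 1.06 [0.95, 1.17], and Lsm5 14.0 and 29.2 CPM, a ratio of -1.06 [-1.14, -0.98]. Snrpe and Srsf3 stayed within 2-fold, at -0.80 and -0.73. Srsf3 was at 63.5 to 301 CPM (median 92.8) in KO and 70.8 to 442 CPM (median 345) in WT oocytes.

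Library sets bear on these oocyte values, since 10 of 14 WT but 7 of 19 KO oocytes were of the spike-in set. Within WT oocytes 12 of 50 splicing genes passed 2-fold upward and 12 downward in the spike-in relative to the low-rRNA set, against 24.1% and 19.1% of all genes, and within KO oocytes 11 and 8 of 51, against 23.9% and 13.6%. Srsf3 was at 367 CPM in the spike-in and 92.0 CPM in the low-rRNA set of WT oocytes, and at 267 and 79.0 CPM in KO oocytes. Sf3b5 was at 1.96 and 55.5 CPM in WT and at 1.70 and 35.8 CPM in KO oocytes, and Snrnp40 at 7.24 and 54.9 CPM and at 2.30 and 52.6 CPM. Among 48 splicing genes compared in the spike-in set alone, KO was higher for 7 and lower for 2, against 9.41% and 3.69% of all genes, and with the low-rRNA set alone 1 was higher and none lower of 48, against 1.98% and 2.03%. Srsf3 was then -0.46 in the spike-in set, and Srsf7 was 0.90 with all oocytes and 1.32 in the spike-in set. In the low-rRNA set Sf3a2 was at 15.9 CPM in KO and 7.73 CPM in WT. Srsf6 was there at 17.9 and 12.9 CPM, Snrnp200 at 13.6 and 9.64 CPM and Lsm5 at 12.7 and 23.7 CPM, all within 2-fold. In the spike-in set Sf3a2 was at 17.3 CPM in KO and 3.90 CPM in WT. Srsf6 was there at 20.4 and 6.18 CPM, Snrnp200 at 21.6 and 6.52 CPM and Lsm5 at 6.82 and 20.1 CPM. No splicing gene had all KO oocytes above or below all WT oocytes, against 0% and 0.0316% of all genes.

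The wider splicing machinery was described with 118 further genes in 6 lists. Between WT oocytes and WT 2-cell samples 36 of 108 (33.3%) were higher and 22 (20.4%) lower, against 41.1% and 14.3% of all genes. At the 2-cell stage 2 of 107 were higher and 38 (35.5%) lower in KO, near the 5.96% and 31.6% of all genes, with medians of -0.51 and -0.35. The lists below are small, and their counts are descriptions to be read against the same shares. The snRNP assembly list, which holds the SMN complex that loads Sm rings, had 2 higher and 9 lower of 15. Tgs1, which methylates the cap of snRNAs, had pooled levels of 4.19 CPM in KO and 72.5 CPM in WT, a ratio of -4.12. Gemin2 had 3.78 and 36.0 CPM, a ratio of -3.25. Smn1 itself was higher in KO, at 289 and 112 CPM, a ratio of 1.37, as was Gemin8 at 1.13. In WT, Smn1 had been at 523 CPM in oocytes, and Wdr77, a part of the methylosome that modifies Sm proteins, at 0.09 CPM in oocytes and 96.4 CPM at the 2-cell stage. The other minor spliceosome genes had 5 lower of 7, led by Zmat5 at 1.83 and 49.1 CPM, a ratio of -4.75. The hnRNP list had 5 lower of 22, SR-related proteins and kinases 4 of 11, the B, C and Prp19-related complexes 11 of 45, and the exon junction complex 4 of 7. In KO against WT oocytes 1 of 91 was higher (Tra2a, 1.31) and 1 lower (Gemin7, -1.03), against 2.04% and 2.39% of all genes.

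In the epiblast, cultured and natural embryos were compared with edgeR's quasi-likelihood test on 2 against 2 samples, with Benjamini-Hochberg adjusted p over all genes. CPM here are on TMM-scaled totals. Total counts were 11826853 and 24047088 at E6.5 and 10377163 and 10241401 in IVC. Of 11565 genes tested, 12% were higher and 23.5% lower in IVC, with a median log2 fold change of -0.85. Of the 66 splicing genes tested 27 (40.9%) rose and 9 (13.6%) fell, with a median of 0.97. The counts changed with any 1 sample left out. Genes such as Srsf4, Prpf19, Sf3a1, U2af2, Srsf1, Snrpc, Snrpb2 and Lsm2 passed only with both E6.5 samples in the fit. With 1 sample left out, the members' median ran from 0.92 (without E6.5 replicate 1) to 1.08 (without E6.5 replicate 2). With DESeq2 all 36 genes called here passed, and 15 were lower, a count not set against all genes. Srsf12 was at 0 in all 4 samples. Other features moved with the group. Rn45s took 26.2% and 23.3% of counts at E6.5 and 0.101% and 0.121% in IVC. The 8 epiblast markers summed to 4321 to 4748 CPM at E6.5 and 1720 to 1974 CPM in IVC. A list of 8 extraembryonic ectoderm and trophoblast markers summed to 154 to 169 CPM and 6822 to 7029 CPM, with 5 of the 8 at 0 in IVC (Cdx2, Esx1, Hand1, Ascl2 and Tpbpa). A list of 9 visceral endoderm markers summed to 155 to 172 and 639 to 660 CPM. Cytosolic ribosomal protein genes rose in 68 of 82, with a median of 2.38. The part of these features in the result was not tested, and in bulk samples fewer cells of a type and less RNA per cell cannot be told apart. The labels do not say whether the 2 samples of a group came from separate embryos, so p-values measure the spread between these samples.

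The Lsm2-8 ring rose in all 7 genes and the Sm core in 5 of 7, with none falling. Lsm5 was at 0.636 and 3.90 CPM at E6.5 and 563 and 611 CPM in IVC, a log2 fold change of 7.96 ± 1.09 (SE, adjusted p = 0.025). Lsm7 was at 12.6 and 27.0 CPM and 1770 and 1534 CPM, a change of 6.38 ± 0.52 (adjusted p = 0.009). The other 5 of the ring changed by 2.25 to 3.84. Snrpg was at 22.3 and 25.7 CPM and 887 and 896 CPM, a change of 5.21 ± 0.19 (adjusted p = 0.004). Snrpd3 was at 66.97 and 47.4 CPM and 1515 and 2278 CPM, a change of 5.05 ± 0.35 (adjusted p = 0.007). Snrpe, Snrpd1 and Snrpd2 rose by 4.95, 4.29 and 3.83. The other Sm genes, Snrpb and Snrpf, had changes of -0.68 (adjusted p = 0.19) and -3.76 (adjusted p = 0.08).

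The genes of the large U5 proteins PRPF8 and SNRNP200 fell. Prpf8 was at 1143 and 1048 CPM at E6.5 and 47.9 and 74.5 CPM in IVC, a change of -4.16 ± 0.30 (adjusted p = 0.007). Snrnp200, the helicase that unwinds U4 from U6, was at 468 and 445 CPM and 13.7 and 27.3 CPM, a change of -4.47 ± 0.45 (adjusted p = 0.014). Snrnp27, a small tri-snRNP protein, rose by 4.88. In the U2 snRNP the small subunits Sf3b5 and Sf3b6 rose by 4.58 and 3.62, as did Snrpa1 and Snrpb2, while the larger Sf3b3 and Sf3a1 had changes of -3.03 and -2.36. U2af1 rose by 3.23 and U2af2, its partner at the polypyrimidine tract, changed by -1.88. Prpf19, the ubiquitin ligase that activates the spliceosome, was at 229 and 218 CPM and 12.55 and 25.1 CPM, a change of -3.57 ± 0.48 (adjusted p = 0.024). SR proteins rose in 5 of 10, with Srsf7 at 2.21, and fell in 2. Srsf1 changed by -1.25. Srsf4 was at 95.6 and 94.2 CPM at E6.5 and 0 in both IVC samples (adjusted p = 0.018). With the IVC pool set to a floor of 3 counts it was 591-fold lower. The 95% counting interval of that pooled log2 ratio reached up to -8.91. Of the 118 wider genes 27 (22.9%) rose and 21 (17.8%) fell, against 12% and 23.5% of all genes, among them Zcrb1 at 5.13 and Magohb at 4.70, and Ptbp1 at -4.17 and Sf1, which binds the branch point before U2, at -3.46.

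**Figure D5:**
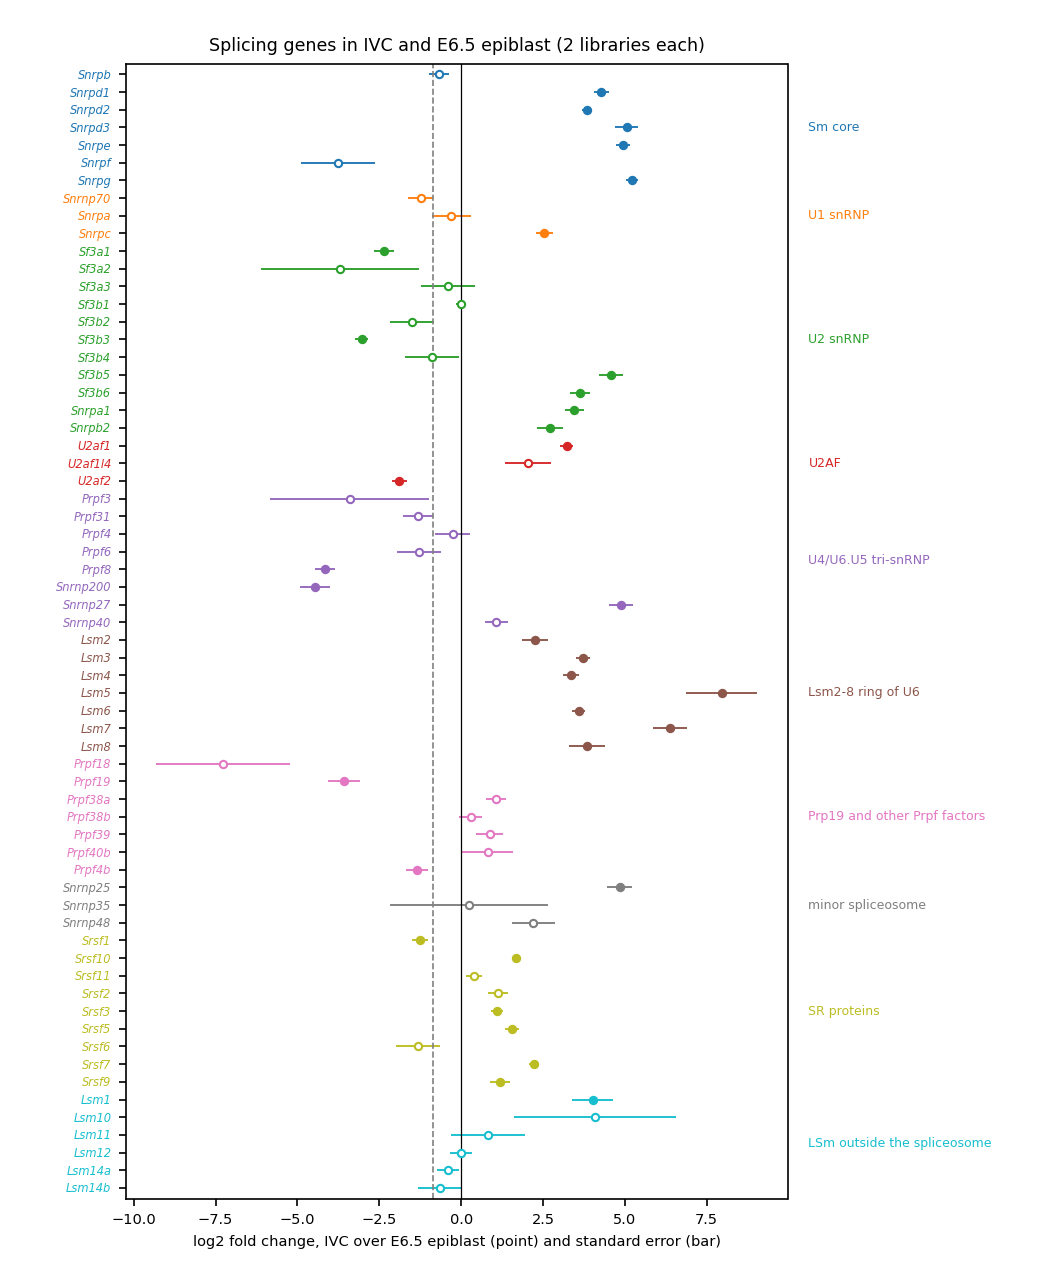
Log2 fold change, IVC minus E6.5, of the splicing genes with SE bars, by role; filled points had an adjusted p below 0.05 and the dashed line is the median of all genes tested (-0.85). The Lsm2-8 ring is filled and right of 0 throughout, while Prpf8, Snrnp200 and Prpf19 are filled and left of it; Srsf4 and Srsf12 are not drawn.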

How the data were processed

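RNA of single oocytes, 2-cell samples and bulk epiblast was sequenced. The submitters' processing notes list build mm9 with STAR 2.6.0a, featureCounts 2.0.1, HTSeq 0.10.0, Trim Galore 0.6.6 and cutadapt 1.15, without the role of each. The authors deposited raw counts per gene: a total and an allele table for oocytes and 2-cell samples, and a table for each epiblast group, joined here on symbol (24446 shared). The 92 spike-in rows were left out of totals. Of 209 samples 54 were used, and the other 155 were not analysed here. Pooled ratios took genes that reached 10 CPM in one of the pools. Epiblast counts were tested with edgeR 4.0.16 (R 4.3.3): TMM factors, filterByExpr, quasi-likelihood fit and Benjamini-Hochberg adjustment at 0.05, with the SE as the absolute log2 change over the square root of F. Both scripts were tested on simulated data. DESeq2 1.42.0, limma 3.58.1, other scalings and limits, and left-out samples were the alternatives. Genes named with full values are the 4 with the highest and the 4 with the lowest ratio in each comparison at 20 CPM or more, or the 4 of each side among those past the test; others illustrate a role. Members and lists were chosen with earlier results of these data known. In the allele tables the 2 alleles sum to more than the total in 2046 gene by sample values, none of a splicing gene. A single gene is counted but not reported here by name or drawn.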

Additional observations from a re-analysis of the deposited data

Results flagged for a closer look

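Single samples stood apart from the rest of their group in 5 of 40 sets of values looked at, by Dixon's test at 95%; chance flags about 1 set in 20. WT 2-cell replicate 8 was far above the other WT samples for Sf3b3 at 39.2 CPM and for Snrpd3 at 64.2 CPM. WT 2-cell replicate 1 was highest for Snrpb2 at 324 CPM. KO 2-cell replicate 4 was highest for Snrnp70 at 13.4 CPM, and KO 2-cell replicate 3 for Srsf7 at 135 CPM.

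For 2 genes the KO samples lay on opposite sides of the WT median at the 2 stages, and the difference was not tested. Every KO oocyte had less Srsf3 than the WT oocyte median (KO median 92.8 CPM), and every KO 2-cell sample had more than the WT 2-cell median. In the low-rRNA set the pooled oocyte level was 79.0 CPM in KO and 92.0 CPM in WT, and in the spike-in set 267 and 367 CPM. Every KO oocyte had more Snrpa1 than the WT oocyte median (KO median 129.2 CPM), and every KO 2-cell sample had less than the WT 2-cell median. The WT oocyte level of Snrpa1 differed by library set, at 62.9 CPM in the spike-in and 130.4 CPM in the low-rRNA set, and the KO level was 119.8 and 140.4 CPM. Within the low-rRNA set the log2 ratio of KO to WT was 0.11, and within the spike-in set 0.93.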

How the results depend on the processing

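In the single-cell comparisons only the genes with the highest and lowest ratios or paternal shares, named with full values above, were followed through the alternative runs. In the epiblast all called genes were followed, and for the allele levels no gene was. No called gene among those followed turned to the other side, and the remaining called genes were not checked. The members' median of WT 2-cell against WT oocytes changed sign with DESeq2's size factors. In KO against WT oocytes, where neither was called, the members' median (-0.03) and Lsm14b (-0.24) changed sign in the low-rRNA set. Counts in KO against WT oocytes (3 higher, 1 lower) were 5 higher at a 1 CPM minimum, 0 and 0 at 30 CPM, 0 lower with the mean of library CPM, 7 and 6 with the median, 6 and 8 at a 1.5-fold limit, 7 and 2 in the spike-in set and 1 and 0 in the low-rRNA set. With DESeq2's size factors WT 2-cell against WT oocytes gave 15 higher, 22 lower and a median of -0.28, KO against WT 2-cell 11 higher, 16 lower and -0.23, and KO 2-cell against KO oocytes 19 lower and -0.56. KO against WT 2-cell gave 6 higher with TMM factors, 1 with totals that leave out Rn45s and 6 at 1.5-fold, where KO 2-cell against KO oocytes gave 17 higher. Genes with a paternal share past the limit numbered 46 in WT and 17 in KO at 10%, and 14 in KO at 20 counts. At 200 counts the paternal allele was lower in 25 genes and the maternal in 7; maternal limits were added after seeing the data. In the epiblast DESeq2 gave 15 lower. The cause was not tested, beyond the smaller number of genes at higher minimums. Counts in this section are given without the share of all genes under the same setting. They show how the calls moved with the setting, and are not a result about the splicing genes against all genes.

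Leaving out 1 sample at a time gave 2 to 3 higher, 0 to 2 lower and medians of 0.002 to 0.10 for KO against WT oocytes; 23 to 27, 11 to 12 and 0.66 to 0.79 for WT 2-cell against WT oocytes; 1 to 5, 25 to 27 and -0.91 to -0.64 for KO against WT 2-cell; and 9 to 12, 10 to 15 and -0.22 to -0.04 for KO 2-cell against KO oocytes. Paternal shares of 25% were reached by 29 to 33 WT genes (median 27.4 to 36.4) and 5 to 10 KO genes (median 5.41 to 8.71), 5 being without KO 2-cell replicate 8. The paternal allele was lower in 41 to 45 genes (median -3.10 to -2.56), and the maternal higher in 4 to 12 and lower in 12 to 14 (median -0.37 to -0.23). In the epiblast the members' median was 0.92 to 1.08, each arm of 1 being assumed to vary like the other. The counts of genes called changed with any 1 sample left out and are not given for such an arm. With a replicate block the epiblast gave 25 higher and 8 lower; same-numbered samples did not deviate together (correlation 0.0007), so the numbers were not taken as pairs.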
